A study of Homo sapiens with 18 samples.

Results

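The clustered protocadherins were examined in LoVo cells, an established human colorectal cancer line, carrying wild-type METTL3 (WT) or METTL3 K513R. They were taken as every row of the gene count table whose symbol is PCDHA, PCDHAC, PCDHB, PCDHGA, PCDHGB or PCDHGC followed by a number. That gave 54 of 61267 genes, with 16 in the alpha, 16 in the beta and 22 in the gamma cluster, all on the plus strand of chromosome 5 (GRCh38). METTL3 is the enzyme of the writer of N6-methyladenosine (m6A), a modified base of mRNA. K513R puts an arginine in place of a lysine that, according to the study, carries methylation. The study compared the genotypes to learn what that methylation does. Each genotype had 3 RNA-seq libraries from total RNA depleted of rRNA. It also had 3 MeRIP input and 3 MeRIP IP libraries, in which fragmented poly(A) RNA was sequenced before and after pull-down with an antibody to m6A. The labels name no treatment, and they do not say how the K513R cells were made or whether they are 1 clone. Nor do they say that numbered libraries of a group are separate cultures. The p-values thus rest on the spread between libraries alone, which may be technical.

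Clustered protocadherins are cell adhesion proteins that are best known in neurons, where the set of isoforms on a cell gives it a surface identity. Each alpha and gamma gene has a large variable exon of its own, with its own promoter, which codes for the extracellular part. That exon is spliced to a short series of constant exons at the end of the cluster, which code for the common cytoplasmic tail. Beta genes stand alone and have no constant exons. The insulator protein CTCF, cohesin and DNA methylation act on the promoters, many of which hold a conserved sequence element with the letters CGCT at its core.

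That promoter element is shown for members whose values carry the results, because it is sequence that members share and because it lies outside the exons in which reads were counted. RefSeq (GRCh38.p14) gave promoters for 47 of the 54 members, each 300 bases long around a transcript start. The windows below are 30 bases on the plus strand, and capitals mark CGCT.
PCDHA1: tggccacatgatgtCGCTgtacaccacaaa
PCDHA2: tagccacatgatgtCGCTgtccaccataga
PCDHA6: gagccgcatgatgtCGCTgtctaccatgaa
PCDHB9: aagccacaaggtggCGCTgcagactgaaga
PCDHB14: gagacacatggtggCGCTacaggataagac
PCDHB15: acaacgcatggtggCGCTgcaggctaaggc
PCDHGA1: aggactgtgggcgcCGCTgttcactaatct
PCDHGA2: aggcctctgagcgtCGCTgttgaccaccta
PCDHGB1: caacctctgggcgcCGCTgtcgaccaaaag
PCDHGC3: gggactctgtgtgcCGCTgtcggccaatga
The windows lie at chr5:140786088-140786117 for PCDHA1, chr5:140794783-140794812 for PCDHA2 and chr5:140827899-140827928 for PCDHA6. Those of the beta genes lie at chr5:141187076-141187105 (PCDHB9), chr5:141223265-141223294 (PCDHB14) and chr5:141245316-141245345 (PCDHB15). Those of the gamma genes lie at chr5:141330405-141330434 (PCDHGA1), chr5:141338705-141338734 (PCDHGA2), chr5:141350027-141350056 (PCDHGB1) and chr5:141475882-141475911 (PCDHGC3). In each the C of CGCT stands upstream of the RefSeq transcript start, at -38 in PCDHA1, -55 in PCDHA2, -47 in PCDHA6, -71 in PCDHB9, -64 in PCDHB14 and -65 in PCDHB15. In the gamma genes it stands at -95 in PCDHGA1, -41 in PCDHGA2, -58 in PCDHGB1 and -70 in PCDHGC3.

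The letters around CGCT differed by cluster, when both strands of each promoter were searched for motifs chosen after these sequences were seen. CGCT alone is common and occurred in 70.0% of all 35116 RefSeq promoters of this length. GATGTCGCT occurred in 9 of 13 alpha genes with a promoter, in 0 beta and 0 gamma genes, and in 0.105% of all promoters. GTGGCGCT occurred in 13 of 14 beta genes, in 0 alpha and 0 gamma genes, and in 1.15% of all promoters. CGCTGTT occurred in 13 of 20 gamma genes, in 1 beta gene and 0 alpha genes, and in 2.26% of all promoters. The 3 longer motifs all contain CGCT, so these matches overlap with the matches to it. Members that changed and members that did not pass the test both hold the letters, as PCDHB14 and PCDHB9 show.

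The RNA-seq counts summed to 47105235 to 53795212 per library, and 37167 to 38099 genes had a count in a WT library against 43199 to 44825 in a K513R library. METTL3 itself rose from 39.2 ± 0.897 to 52.0 ± 2.44 CPM (counts scaled to the library total with TMM factors; mean ± SD, n = 3 each, here and below). Gene counts cannot show the amino acid exchange, so the labels are not checked by this level. Of the colorectal epithelium markers, EPCAM, CDH1, KRT8 and KRT18 were plainly present, CDX1 was at 0 in all 6 libraries, and KRT20, LGALS4 and CEACAM5 stayed below 1 CPM on average in both genotypes. Of 10 such markers 8 were tested, and 1 of these did not pass the test. Beside 36.9% lower and 41.5% higher over all genes tested, 5 markers fell and 2 rose. The summed level of the 10 markers, carried by KRT8 and KRT18, was 9502 to 13790 CPM in WT and 2387 to 2563 CPM in K513R libraries. CDH1 rose from 84.4 ± 3.61 to 174 ± 8.10 CPM, and LGALS4 rose to 0.608 ± 0.118 CPM. LGALS4 had 0, 1 and 2 counts in WT, so it passed the filter on low counts through K513R alone and had to differ. Fewer cells of a kind and less RNA per cell cannot be told apart in such bulk samples.

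Over all members tested, 21 rose and 1 fell in K513R, and these calls were spread unevenly over the 3 clusters. All 15 alpha genes tested rose, 3 of 9 beta genes tested rose, and of 22 gamma genes tested 3 rose and 1 fell. Calls rest on edgeR's quasi-likelihood test with a Benjamini-Hochberg adjusted p under 0.05 over the 30377 genes that passed a filter on low counts. Over all of these genes 41.5% rose and 36.9% fell, 78.3% together, so a call is common in this comparison. The 3 libraries of K513R lay above those of WT in 42.5% and below them in 37.8% of genes, and the median log2 fold change was 0.13. The filter removed 8 members, namely PCDHA14, PCDHB1, PCDHB3, PCDHB4, PCDHB5, PCDHB6, PCDHB7 and PCDHB13. An alpha member near 0 in WT passed the filter only through its K513R counts and then had to differ, so the count of called alpha genes supports nothing by itself. Of the called beta genes, PCDHB15 also passed the filter through its K513R counts alone.

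Reads are shared within the alpha and within the gamma cluster, which sets how the member counts can be read. By the exon coordinates that the count table lists, 15 alpha genes share 3 constant exons, at chr5:140978949-140979007, chr5:140982475-140982563 and chr5:141009627-141012347, with 2869 bases in all. PCDHA14 (chr5:140861224-140863521) has none of them and lies wholly within exons of PCDHA10. All 22 gamma genes share constant exons at chr5:141494807-141494865, chr5:141505393-141505481 and chr5:141510947-141512975, with 2177 bases in all. Exonic bases in common with other members made up 21.4% to 100% of an alpha gene, 27.5% to 64.4% of a gamma gene and 0% of a beta gene. A read that falls on several genes was counted for all of them, on either strand. MALAT1 and its antisense gene TALAM1 show this, with 355780 and 331909 counts in WT replicate 3. A read in the constant exons was therefore counted for every member that has them, and the lowest member's count in a library is an upper bound on the counts that all members have in common. What a member has above that lowest count lies in sequence that not all members share.

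The alpha cluster went from almost no counts in WT to at least 43 counts per gene and library in K513R, PCDHA14 excepted. In WT the 15 genes with constant exons had 0 to 8 counts per library. In K513R they had 43 to 120.
PCDHA1, the first variable exon of the cluster (chr5:140786136-141012347), had 2, 4 and 6 counts in the WT and 107, 75 and 120 in the K513R libraries. PCDHA2 (chr5:140794852-141012347) had 0, 4 and 6 counts in WT and 94, 68 and 104 in K513R. PCDHA6 (chr5:140827958-141012347) had 2, 4 and 2 counts in WT and 53, 46 and 119 in K513R. In each of these genes every K513R library lay above every WT library, and K513R replicate 3 was the highest.
PCDHA9 (chr5:140847772-141012347) had 0, 4 and 2 counts in WT and 47, 52 and 87 in K513R. PCDHA13 (chr5:140882124-141012347) had 0, 4 and 2 counts in WT and 47, 48 and 81 in K513R. In K513R these counts were at most 6 above the lowest alpha count of the same library for both genes.

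In CPM, PCDHA1 went from 0.0808 ± 0.0410 to 2.07 ± 0.439. Its log2 fold change was 4.65 with a standard error (SE) of 0.41, the error given with fold changes below (edgeR adjusted p = 1.02e-08). The log2 fold changes were 4.72 ± 0.50 for PCDHA2, 4.73 ± 0.53 for PCDHA6, 4.89 ± 0.58 for PCDHA9 and 4.81 ± 0.58 for PCDHA13. Over the 15 genes they ran from 3.92 to 4.89 with a median of 4.54. These values are not 15 independent measurements, since reads in the constant exons stand in each of them, and their size rests on WT counts in single digits. Without WT replicate 2 the PCDHA9 value was 5.81, and without WT replicate 1 it was 4.26. PCDHA2 gave 4.07 and 5.37 with WT replicate 1 or 3 left out, and PCDHA13 gave 4.18 and 5.73 with WT replicate 1 or 2 left out. Without WT replicate 1 or 2 the value of PCDHA5, PCDHA7, PCDHA8, PCDHA11 or PCDHAC2 also moved by over 1.5 times, in the range 3.77 to 5.75. Every call held, but these genes passed the filter through K513R alone and had to differ, so that says nothing about stability.

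**Figure D1:**
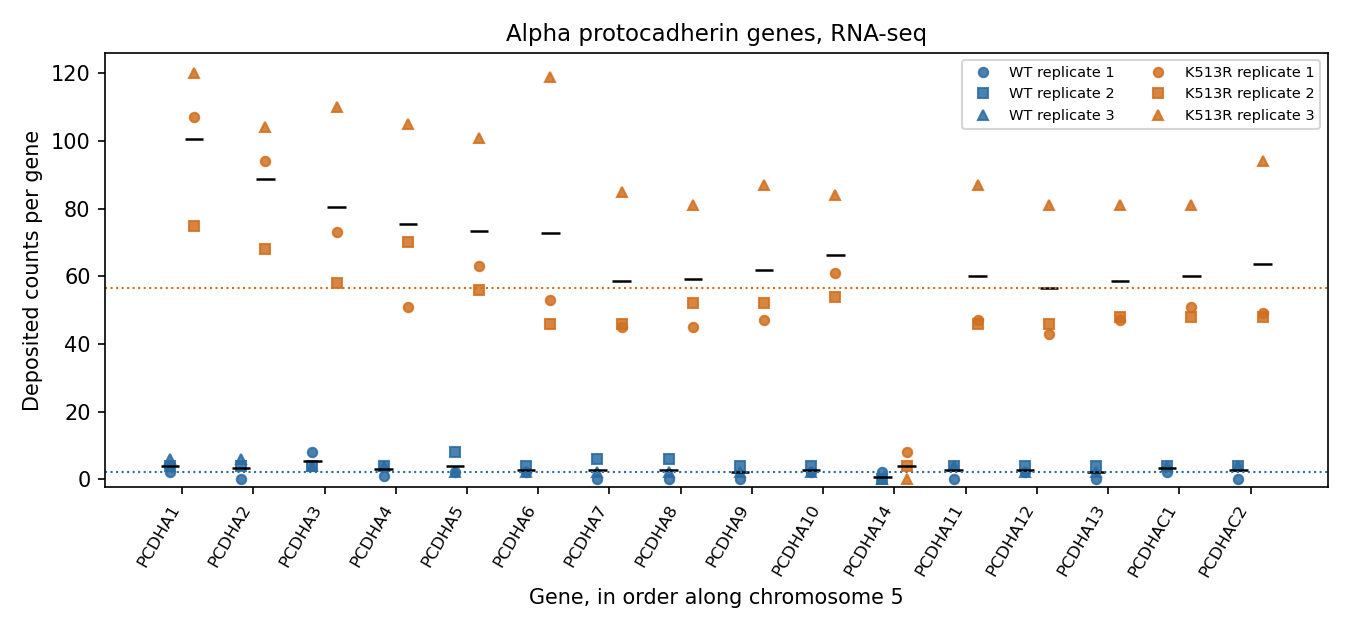
Deposited RNA-seq counts of the 16 alpha genes (y axis) in the order of the genes along chromosome 5 (x axis), with 1 point per library, a black bar at the mean of 3 libraries, and dotted lines at the mean over libraries of the lowest count among genes with constant exons. The WT libraries lie between 0 and 8 counts and the K513R libraries of the 15 genes with constant exons between 43 and 120, with the first genes highest.

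The lowest alpha count was 0, 4 and 2 in the WT and 43, 46 and 81 in the K513R libraries. As a level it went from 0.0420 ± 0.0433 to 1.16 ± 0.381 CPM, with no overlap between the genotypes (exact permutation test, two-sided, p = 0.1, the smallest that 3 libraries against 3 allow). Counts above that lowest count summed over the 15 genes to 21, 8 and 18 in WT and 231, 123 and 205 in K513R. They stood mostly in the first genes. PCDHA1 had 64, 29 and 39 counts above the lowest member in K513R and 2, 0 and 4 in WT. PCDHA2 had 51, 22 and 23 in K513R and 0, 0 and 4 in WT, and PCDHA3 had 30, 12 and 29 in K513R and 8, 0 and 2 in WT. PCDHA6 had 10, 0 and 38 counts above the lowest in K513R and so rested on K513R replicate 3 for most of them. From PCDHA7 to PCDHA13, 18 was the highest such count in any library, for PCDHA10 in K513R replicate 1. The genes PCDHA1 to PCDHA4, grouped after their values were seen, held 66.2%, 70.7% and 56.1% of the counts above the lowest in the K513R libraries. PCDHA2 and PCDHA3 each have 3431 bases in common with other members, against 2869 in the constant exons. Reads in the further bases were counted for each gene that has them, so this share can hold the same read repeatedly.

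Per kilobase, the counts above the lowest in the variable exon of PCDHA1 came to 0.0142 ± 0.0145 CPM per kb in WT and 0.334 ± 0.146 CPM per kb in K513R. The constant exons stood at no more than 0.0146 ± 0.0151 CPM per kb in WT and 0.403 ± 0.133 CPM per kb in K513R. The variable exon of PCDHA1 and the bound for the constant exons thus overlapped in their levels in K513R. When the table was refitted with the lowest count taken off each member, 3 alpha genes passed the low-count filter, and all 3 were called higher. They had 0 to 8 counts in WT after the subtraction and passed the filter through K513R alone, so they had to differ and their tests support nothing. The log2 fold changes were 4.43 ± 0.64 for PCDHA1 (edgeR adjusted p = 6.3e-06), 4.52 ± 0.80 for PCDHA2 (adjusted p = 5.31e-05) and 2.84 ± 0.71 for PCDHA3 (adjusted p = 0.00142). In that refit 41.5% of all genes tested rose.

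Another transcript of the locus rose with the alpha genes, and genes without a known role in this tissue rose in sum. An antisense gene, ENSG00000279726, covers 2719 of the 2726 bases that PCDHA1 has of its own, and it had 8, 3 and 5 counts in WT and 98, 49 and 101 in K513R. The same antisense gene overlaps 433 bases of PCDHA3, 590 of PCDHA5 and 592 of PCDHA6. Without strand, reads of PCDHA1 and of this gene cannot be told apart, nor can those in the overlaps with PCDHA3, PCDHA5 and PCDHA6. PCDHA2 overlaps no gene outside the family. Olfactory receptor genes, 404 rows in all, summed to 0.0486 ± 0.0105 CPM per kb of exon in WT and 0.160 ± 0.00157 CPM per kb in K513R. All K513R libraries lay above all WT libraries, and 260 of these genes were at 0 in all WT libraries against 72 in all K513R libraries. Of these genes 83 were tested, and 56 rose and 18 fell, beside 41.5% higher and 36.9% lower over all genes. Genes this low in WT can pass the filter through K513R alone and then have to rise, so these counts support nothing by themselves. The part of such a rise of low genes in the alpha result was not tested.

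The beta genes, which share no exon with one another, were low in both genotypes, and 3 of them rose in K513R. Their counts summed to 133, 109 and 158 in the WT and 216, 255 and 227 in the K513R libraries. The summed level was 2.66 ± 0.413 CPM in WT and 4.79 ± 0.454 CPM in K513R, and the K513R to WT ratio was 1.80 with no overlap (exact permutation test, two-sided, p = 0.1, the smallest possible). Without the 3 genes that rose, the sums were 2.10 ± 0.467 and 2.82 ± 0.559 CPM (exact permutation p = 0.2). PCDHB8 has 221 bases in common with ENSG00000279472, a plus-strand gene with 4, 1 and 0 counts in WT and 7, 8 and 3 in K513R. PCDHB14 and PCDHB15 have 169 and 379 bases in common with ENSG00000279983, also on the plus strand. That gene had 5, 3 and 11 counts in WT and 17, 8 and 8 in K513R. The part of these overlaps in the beta counts was not tested.

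PCDHB14 (chr5:141223343-141227759) had 15, 14 and 8 counts in WT and 50, 30 and 49 in K513R, and every K513R library lay above every WT library. Its level went from 0.247 ± 0.0776 to 0.884 ± 0.230 CPM, or by 1.83 ± 0.41 on the log2 scale (edgeR adjusted p = 0.000575). PCDHB15 (chr5:141245395-141249365) had 3, 6 and 7 counts in WT and 10, 34 and 33 in K513R, with K513R replicate 1 close to the WT libraries. Its log2 fold change was 2.27 ± 0.59 (edgeR adjusted p = 0.00189). With 3, 6 and 7 counts in WT it passed the low-count filter through its K513R libraries alone, so that call supports nothing by itself. It no longer passed the filter when K513R replicate 2 or 3 was left out. PCDHB8 (chr5:141177790-141180539) had 12, 8 and 10 counts in WT and 12, 36 and 34 in K513R, so that replicate 1 had the same count in both genotypes. Its log2 fold change of 1.48 ± 0.50 (edgeR adjusted p = 0.0115) became 1.22 without K513R replicate 2 and was no longer called (adjusted p = 0.065).

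PCDHB9 (chr5:141187127-141191541) had the highest level per kilobase of the beta genes in WT, with 38, 26 and 29 counts in WT and 26, 29 and 36 in K513R. The libraries of the genotypes overlapped, at 0.615 ± 0.0819 and 0.621 ± 0.0798 CPM, with a log2 fold change of 0.01 ± 0.35 (edgeR adjusted p = 0.973). In K513R the order changed, with PCDHB8 at 0.203, PCDHB14 at 0.200, PCDHB9 at 0.141 and PCDHB15 at 0.132 CPM per kb. The spread between libraries of PCDHB8 and PCDHB15 covers their neighbours in that order. The other 5 beta genes tested had log2 fold changes of 0.88 ± 0.53 (PCDHB12), 0.78 ± 0.48 (PCDHB2), 0.39 ± 0.56 (PCDHB16), 0.36 ± 0.55 (PCDHB11) and 0.03 ± 0.56 (PCDHB10). None of these passed the test.

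The 7 beta genes that the filter removed had few counts throughout. PCDHB4, PCDHB6 and PCDHB7 were at 0 in all WT libraries and had 0 to 6 counts in K513R libraries. PCDHB1 had 2, 0 and 0 counts in WT and 8, 4 and 4 in K513R. PCDHB3 had 2, 0 and 10 counts in WT and 2, 4 and 0 in K513R, PCDHB5 had 0 to 3 in every library, and PCDHB13 had 4, 8 and 14 in WT and 6, 14 and 2 in K513R. Nothing can be said of a change in these genes at this depth.

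**Figure D2:**
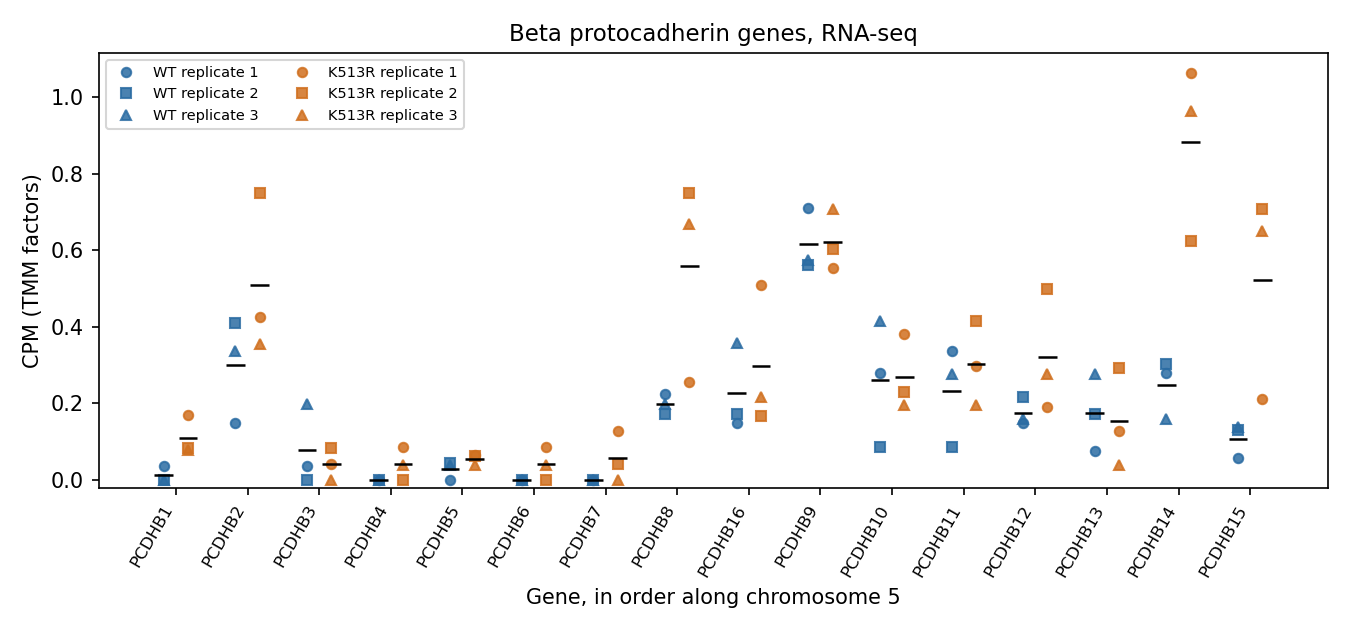
RNA-seq level of the 16 beta genes in CPM with TMM factors (y axis), in the order of the genes along chromosome 5 (x axis), with 1 point per library and a black bar at the mean of 3 libraries. PCDHB14 is the called gene whose K513R libraries stand clear of all WT libraries by the widest margin, K513R replicate 1 of PCDHB8 and PCDHB15 lies near WT, and PCDHB9 overlaps between the genotypes.

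The gamma cluster had counts in both genotypes, and 4 of its genes passed the test. PCDHGA1, PCDHGA2 and PCDHGB1, which are among the first 4 genes of the cluster, rose, and PCDHGC3, a C-type gene near its end, fell. The lowest gamma count was 62, 51 and 62 in the WT and 73, 42 and 43 in the K513R libraries. As a level this was 1.16 ± 0.0625 and 1.09 ± 0.399 CPM, with overlapping libraries (exact permutation test, two-sided, p = 1). Counts above that lowest count summed to 313, 203 and 280 in WT and 497, 463 and 448 in K513R. In CPM these sums were 5.26 ± 0.768 and 9.67 ± 0.868, a ratio of 1.84 with no overlap (exact permutation p = 0.1, the smallest possible).

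PCDHGA1, the first gene of the cluster (chr5:141330514-141512975), had 88, 65 and 93 counts in WT and 212, 173 and 174 in K513R. Its level went from 1.63 ± 0.218 to 3.84 ± 0.578 CPM, or by 1.23 ± 0.20 on the log2 scale (edgeR adjusted p = 2.34e-05). PCDHGA2 (chr5:141338760-141512975) had 62, 51 and 62 counts in WT and 150, 100 and 103 in K513R. It rose by 1.06 ± 0.24 on the log2 scale (edgeR adjusted p = 0.000687). Both genes were higher in every K513R library than in any WT library, and neither overlaps a gene outside the family.
PCDHGB1 (chr5:141350099-141512975) had 99, 77 and 96 counts in WT and 163, 106 and 123 in K513R, a log2 fold change of 0.58 ± 0.22 (edgeR adjusted p = 0.024). That call was lost without K513R replicate 1 (0.36, adjusted p = 0.177), and when WT replicate 1 (0.55, adjusted p = 0.0605) or WT replicate 2 (0.47, adjusted p = 0.105) was left out. It was also lost with library-size scaling (0.50, adjusted p = 0.0588) and without the low-count filter (0.50, adjusted p = 0.0536). PCDHGA3 (chr5:141343829-141512975), which lies between these genes, had 68, 51 and 64 counts in WT and 90, 80 and 70 in K513R, and its value of 0.44 ± 0.25 missed the threshold (edgeR adjusted p = 0.109).

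PCDHGC3 (chr5:141475947-141512977) had 123, 91 and 125 counts in WT and 83, 67 and 79 in K513R, so every K513R library lay below every WT library. It fell by 0.52 ± 0.22 on the log2 scale (edgeR adjusted p = 0.0386), from 2.25 ± 0.257 to 1.57 ± 0.185 CPM. This call was lost with upper-quartile factors (-0.25, adjusted p = 0.299), with DESeq2 (-0.51, adjusted p = 0.0597) and with a minimum mean of 1 CPM (-0.39, adjusted p = 0.107). It was also lost without WT replicate 1 (-0.54, adjusted p = 0.0633), WT replicate 3 (-0.49, adjusted p = 0.0843), K513R replicate 2 (-0.43, adjusted p = 0.114) or K513R replicate 3 (-0.50, adjusted p = 0.0831). The other 17 gamma genes, beside PCDHGA3, had values from -0.25 (PCDHGA9) to 0.09 (PCDHGA4) that did not pass the test, and their libraries overlapped. The median over the 22 genes was -0.07, against 0.13 over all genes tested, and reads in the constant exons stand in the count of every gene.

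**Figure D3:**
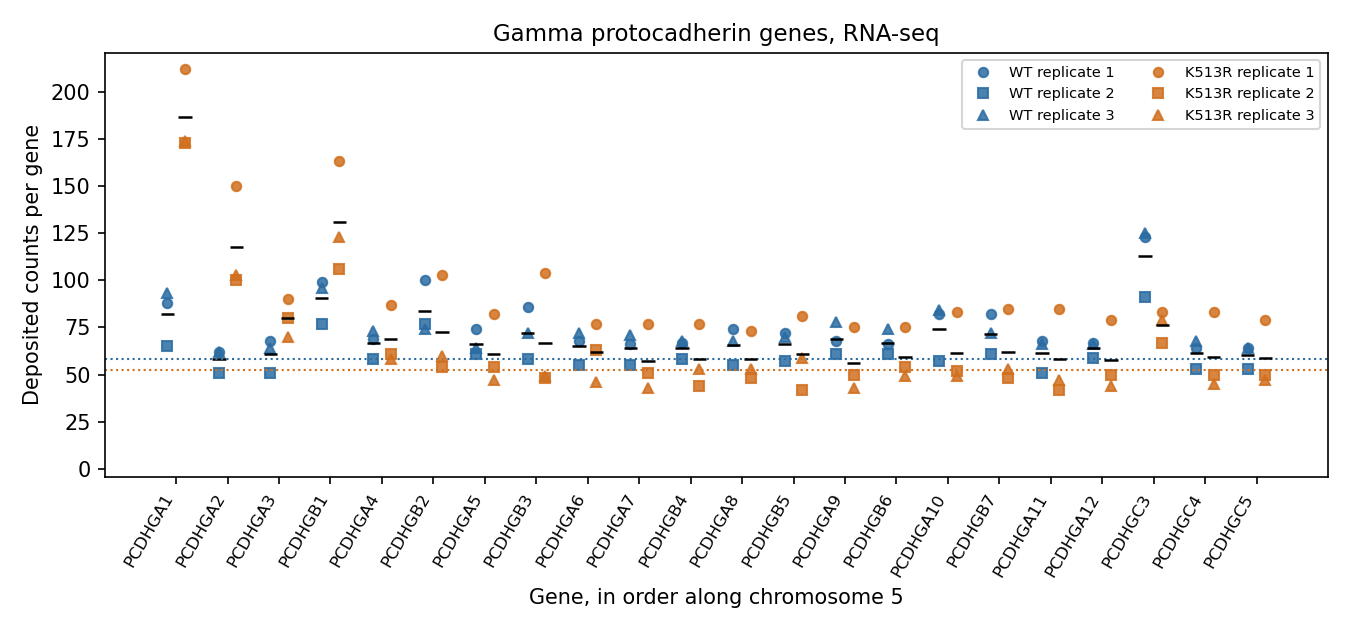
Deposited RNA-seq counts of the 22 gamma genes (y axis) in the order of the genes along chromosome 5 (x axis), with 1 point per library, a black bar at the mean of 3 libraries, and dotted lines at the mean over libraries of the lowest gamma count. PCDHGA1, PCDHGA2 and PCDHGB1 stand above the shared level in K513R, and PCDHGC3 and PCDHGB1 stand above it in WT. Most genes from PCDHGA4 to PCDHGA12 stay near it in both genotypes, while PCDHGB2 among them had 100, 77 and 74 counts in WT.

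Counts above the lowest member separated these genes further. PCDHGA1 had 26, 14 and 31 such counts in WT and 139, 131 and 131 in K513R. PCDHGA2 was itself the lowest member in all WT libraries and had 77, 58 and 60 counts above the lowest in K513R, so no fold is given for it. PCDHGA3 had 6, 0 and 2 in WT and 17, 38 and 27 in K513R. At these genes every K513R library lay above every WT library, as it did at PCDHGB1, with 37, 26 and 34 counts above the lowest in WT and 90, 64 and 80 in K513R. PCDHGC3 went the other way, with 61, 40 and 63 in WT and 10, 25 and 36 in K513R. PCDHGB2, the next gene by this measure in WT, had 38, 26 and 12 in WT and 30, 12 and 17 in K513R, with overlapping libraries.

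When the table was refitted with the lowest count taken off, 12 gamma genes passed the filter, of which 4 were called higher and 1 lower. PCDHGA1 rose by 2.54 ± 0.27 on the log2 scale (edgeR adjusted p = 1.59e-07) and PCDHGB1 by 1.32 ± 0.28 (adjusted p = 0.000357). PCDHGC3 fell by 1.16 ± 0.38 (edgeR adjusted p = 0.0104). PCDHGA2 and PCDHGA3 were the other two called higher, but with 0 to 6 counts left in WT they passed the filter through K513R alone and had to differ. PCDHGA3 was not called on the deposited counts. The first 4 genes of the cluster, PCDHGA1, PCDHGA2, PCDHGA3 and PCDHGB1, were grouped after their values were seen. They held 22.0%, 19.7% and 23.9% of the counts above the lowest in the WT and 65.0%, 62.9% and 66.5% in the K513R libraries. The share of PCDHGC3 was 19.5%, 19.7% and 22.5% in WT and 2.01%, 5.40% and 8.04% in K513R.

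Per kilobase of its own exon, PCDHGC3 stood highest of the gamma genes in WT, at 0.333 ± 0.0606 CPM per kb above the lowest member. PCDHGB1 followed at 0.247 ± 0.0269, PCDHGB2 at a mean of 0.191 and PCDHGA1 at 0.113 ± 0.0379 CPM per kb, and the libraries of PCDHGC3 and PCDHGB1 overlapped. In K513R, PCDHGA1 at 0.667 ± 0.0455 and PCDHGB1 at 0.619 ± 0.112 CPM per kb were highest, with overlapping libraries. PCDHGA2 stood at 0.295 ± 0.0561, PCDHGA3 at 0.208 ± 0.0803, PCDHGB2 at a mean of 0.154 and PCDHGC3 at 0.148 ± 0.0770 CPM per kb. The constant exons were bounded at 0.534 ± 0.0287 CPM per kb in WT and 0.501 ± 0.183 CPM per kb in K513R. In each K513R library the own exons of PCDHGA1 and of PCDHGB1 stood above that bound. In K513R replicate 1 the margin was small, with 0.715 for PCDHGA1 and 0.736 for PCDHGB1 against 0.712 CPM per kb.

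An antisense gene touches 1 of these genes. ENSG00000280026, which is 554 bases long, lies wholly within the variable exon of PCDHGB1, which has 2595 bases of its own. It had 32, 22 and 23 counts in WT and 77, 54 and 66 in K513R, a little below the counts that PCDHGB1 had above the lowest member. Reads in these 554 bases were counted for both genes, and the counts do not show their strand. Most counts that PCDHGB1 had above the lowest member can thus lie in these bases, in both genotypes. Its rise and its level per kb were not tested for the rest of its variable exon. A transcript on the plus strand, ENSG00000272070, lies in the locus too, and it had 80, 77 and 75 counts in WT and 357, 393 and 401 in K513R (log2 fold change 2.35 ± 0.16).

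**Figure D4:**
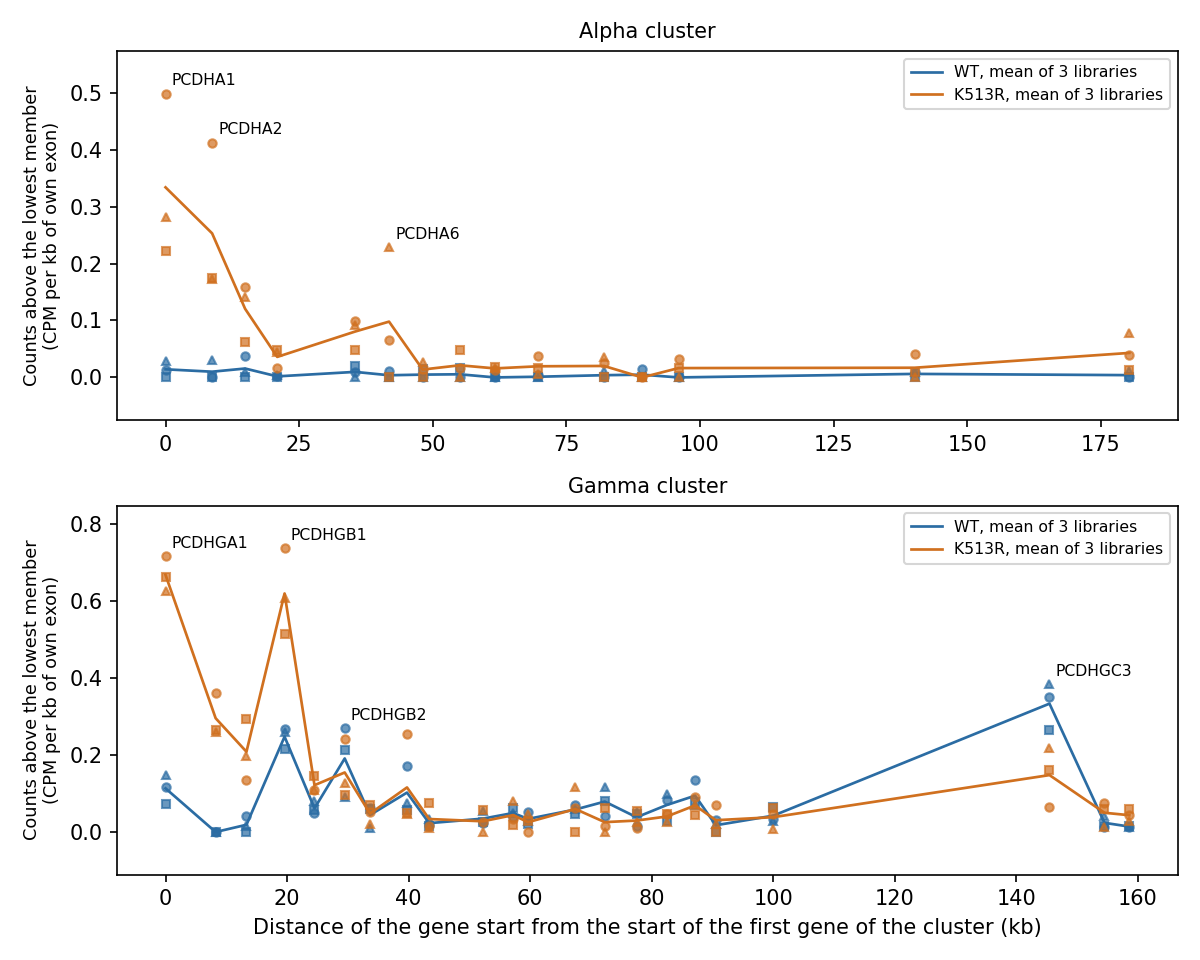
Counts above the lowest member per kilobase of a gene's own exon, in CPM per kb (y axis), against the distance of the gene start from the first gene of the cluster in kb (x axis), for 15 alpha genes (top) and 22 gamma genes (bottom), with 1 point per library (circle, square and triangle for replicates 1, 2 and 3) and lines joining the means of 3 libraries. The K513R values are highest at the first genes of both clusters, and PCDHGC3 is the gene near the end of the gamma cluster that is higher in WT. Bases shared with any other member are left out of the own exon, although counts above the lowest can lie in them, as in PCDHA2 and PCDHA3.

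The order of the genes on the chromosome and their counts above the lowest member ran against each other in K513R. Spearman's rho across genes was -0.63, -0.67 and -0.75 in the K513R libraries for the 15 alpha genes. For the 22 gamma genes it was -0.51, -0.58 and -0.55 in the K513R and -0.25, -0.10 and -0.06 in the WT libraries. These are descriptions across genes of 1 library, which share reads and a position, and the alpha counts in WT were too few to read. Of 35 other rows of the count table in the locus, 10 were tested and 9 were called higher, where 41.5% of all genes were. Some of these, such as ENSG00000288892 with 0 counts in all WT libraries, passed the filter through K513R alone, so that count supports nothing. Among them were TAF7, a general transcription factor subunit on the minus strand (log2 fold change 1.35 ± 0.11), PCDHB1-AS1, an antisense RNA that covers part of PCDHB2 (3.72 ± 0.33), and the pseudogene PCDHB18P (2.73 ± 0.46). The part of these transcripts in the member counts was not tested.

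Only 2 of the 39708 deposited m6A peaks lay on an exon of a member on the same strand, both in the list called in WT. A same-strand peak was present for 18.8% of all genes and for 37.5% of the genes tested in RNA-seq. The peak of PCDHGC3 lies at chr5:141475976-141476217, 29 bases after the start of the gene, and the authors gave it a fold enrichment of 19.1. It had 10, 3 and 9 counts in the WT IP and 2, 4 and 2 in the K513R IP libraries, and 1, 1 and 0 against 0, 0 and 1 in the inputs. The peak of PCDHGA1 lies at chr5:141332813-141333053, 2299 bases after the start of the gene, with a fold enrichment of 10.9 by the authors. It had 3, 1 and 5 counts in the WT IP and 0, 0 and 0 in the K513R IP libraries, with 1 count in 1 of the 6 inputs. Each peak lies wholly on exons of that 1 member.

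Neither peak passed the low-count filter. So neither was among the 27252 peaks tested for IP over input, of which 22.6% changed, or among the 21796 tested in the inputs, of which 20.8% changed. Without the filter, 14.7% of peaks changed in IP over input. The change in IP over input was then -0.18 ± 2.73 on the log2 scale for PCDHGC3 (edgeR adjusted p = 0.974) and -6.48 ± 2.94 for PCDHGA1 (unadjusted p = 0.0342, edgeR adjusted p = 0.134). The second value depends on the prior count that the model adds, since the input libraries held almost nothing. K513R libraries had fewer counts in peaks, 5905811 to 9198650 against 11076729 to 12491969 in the WT IP libraries. A difference in methylation of these transcripts was not detectable at this depth. The poly(A) inputs held 1 count over the peak of PCDHGA1 in K513R and 0 in WT, so they give no second measure of its level.

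Genes of proteins known to act on such promoters mostly fell. Of 19 cluster regulators, 18 fell and 1 rose, with a median log2 fold change of -1.77. The falls were largest for DNMT3A, a de novo DNA methyltransferase (-3.39 ± 0.13), DNMT1, the maintenance DNA methyltransferase (-3.14 ± 0.13), and SMC3, a core subunit of cohesin (-2.84 ± 0.25). CTCF had a log2 fold change of -2.39 ± 0.11, and its level dropped to 32.2 ± 1.14 CPM against 168 ± 16.7 CPM for WT. TRIM28, a corepressor of zinc finger proteins, was the gene that rose, by 0.42 ± 0.13. Over all genes tested 36.9% fell, and nothing here tests whether these levels bear on the members.

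Among 12 protocadherins outside the clusters, 5 were tested and 1 rose, beside 41.5% higher and 36.9% lower over all genes. PCDH1, which lies on chromosome 5 beyond the gamma cluster, went from 18.8 ± 2.32 to 41.6 ± 4.99 CPM, or by 1.15 ± 0.12 on the log2 scale (edgeR adjusted p = 1.05e-07). PCDH12 (0.55 ± 0.28) and PCDH18 (0.37 ± 0.23) did not pass the test, although upper-quartile factors gave 0.81 and 0.63, past the threshold. PCDH8 was at 0 in all WT libraries and had 12, 2 and 7 counts in K513R. Of 19 genes for cytoplasmic partners and for proteolytic processing, 13 fell, 4 rose and 2 did not pass the test, beside 36.9% lower and 41.5% higher over all genes. WASF2, an actin regulator of the WAVE family (-2.73 ± 0.11), the kinase FYN (-2.65 ± 0.12) and ABI1 of the WAVE complex (-2.46 ± 0.14) fell most. The 4 that rose were BRK1, a small WAVE complex subunit, and the gamma-secretase genes NCSTN, APH1A and PSENEN.

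Of 14 genes that flank the clusters or lie between them, 7 rose, 4 fell and 3 did not pass the test, beside 41.5% higher and 36.9% lower over all genes. SLC25A2, a mitochondrial ornithine carrier gene inside the locus, had 21, 24 and 37 counts in WT and 180, 162 and 199 in K513R, a log2 fold change of 2.76 ± 0.25. DIAPH1, a formin gene beyond the gamma cluster, fell by 2.12 ± 0.12, and IK, a splicing factor gene before the alpha cluster, fell by 1.60 ± 0.17.

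Markers of neurons, where these genes are best known, went both ways. Of 14, 12 were tested, 7 rose, 2 fell and 3 did not pass the test, beside 41.5% higher and 36.9% lower over all genes. Among those that rose, STMN2 had 8, 3 and 6 counts in WT and ELAVL3 had 6, 4 and 18. They passed the low-count filter only because of their K513R counts, so their calls support nothing by themselves. The 2 that fell, MAP2 and TUBB3, held most of the summed level, which was 96.6 to 110 CPM in WT and 56.6 to 59.2 CPM in K513R. RBFOX3, a marker of mature neurons, went from 0.374 ± 0.0508 to 1.77 ± 0.591 CPM, and DCX and ELAVL4 stayed below 0.2 CPM on average. Of 7 fibroblast markers 4 rose, 1 fell and 2 did not pass the test, against the same shares over all genes, with sums of 31.6 to 43.1 CPM in WT and 39.3 to 46.9 CPM in K513R. The part of other cell types in the member counts was not tested.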

How the data were processed

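Members and gene lists were chosen with earlier results of these data known. The authors deposited raw counts per gene for 6 RNA-seq libraries and raw counts per m6A peak for 12 MeRIP libraries. In the deposited peak table the fold enrichment of a peak is a ratio, per the file headers. Its p-values, its FDR and its log2 difference between genotypes are also the authors' own, per the file headers, and were not used. Per the submitters' processing notes, reads were handled with Trimmomatic 0.36 and counted with Subread 1.5.1 (featureCounts). The notes also list edgeR 3.12.1, deepTools, bedtools and the build GRCh38. Aligner, peak caller and counting options were not given in the sources used. Even numbers made up 63.2% to 66.6% of the deposited counts from 1 to 20, so a count is not always 1 independent fragment, and precision is lower than the counts imply.

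For RNA-seq, edgeR 4.0.16 (R 4.3.3) was run on the counts with TMM factors, filterByExpr by genotype and the robust quasi-likelihood test, two-sided. Genotype was its single term, and calls needed a Benjamini-Hochberg adjusted p under 0.05. The filter left 30377 genes and dropped 30890, and the biological coefficient of variation was 13.7%. Levels are CPM with TMM factors, and the SE is that of the log2 fold change. Peak counts were tested with edgeR in the inputs, and by a genotype-by-IP interaction in all 12 libraries. A peak was assigned to a member where it overlapped an exon on the same strand (bedtools 2.31.1). Exons came from the coordinates in the count table, and bases held by at least 10 members of a cluster were taken as constant. The fit was tested on simulated data. Sums over a cluster and levels of the lowest member were compared by an exact permutation test over 3 against 3 libraries.

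Values in every library are given for the 3 members with the highest mean CPM per kilobase and the 3 with the largest fold change in each cluster, and for members with a peak. Up to 3 genes of each other list are named by fold change. CTCF, TRIM28, RBFOX3, PCDH8, PCDHGA3, PCDHGB2 and the other rows of the locus were added by name with their values known. The same holds for the members whose counts above the lowest are given and for the other marker genes. Alternatives were RLE, upper-quartile and library-size scaling, 2 other low-count filters, DESeq2 1.42.0, limma-voom (limma 3.58.1), a replicate block, lowest counts subtracted, and leaving out each replicate. Halved counts, and lowest counts subtracted without a filter, were added after the data were seen. Tables and plots were made with Python 3.11.15, pandas 2.3.3, numpy 2.4.6 and matplotlib 3.10.9.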

Additional observations from a re-analysis of the deposited data

How the results depend on the processing

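The 21 members that rose became 5 with a minimum mean of 1 CPM, which leaves 1 alpha and 0 beta genes in the test, and 10 when the lowest count of the cluster was subtracted, which leaves 3 alpha genes in the test. With the lowest count subtracted and no low-count filter 16 members rose, 9 of them alpha genes. On the deposited counts without the filter 31.4% of all genes rose. Among those alpha genes PCDHA9 had 0, 0 and 0 counts left in WT and 4, 6 and 6 in K513R. PCDHA6 had 10, 0 and 38 left in K513R, so the number of alpha calls supports nothing by itself. The 1 member that fell became 0 with upper-quartile factors, a minimum mean of 1 CPM or DESeq2, and 0 to 1 when single replicates were left out. PCDHB9, at 0.01, reversed to -0.0654 with library-size scaling, to -0.0597 without the low-count filter and to -0.0599 without it and with lowest counts subtracted. Leaving out single replicates gave PCDHB9 values from -0.1031 to 0.0905, below 0 without WT replicate 2, WT replicate 3 or K513R replicate 3. None of these was called. Upper-quartile factors moved the median of all genes tested from 0.13 to 0.39, and the gamma calls to 4 higher and 0 lower. With halved counts 3 beta genes were tested and 1, PCDHB14, rose. The beta sum kept its direction in every alternative run. Member peaks were called 0 times, but they did not pass the low-count filter, so this says nothing about stability.

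The replicate numbers were not taken as pairs in the main test, and the correlations below cannot settle whether they pair the libraries. The correlations of same-numbered libraries in their deviations from the group means were -0.07, 0.26 and 0.07. With a replicate block 21 members rose and 1 fell, as without it.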
